A study of Homo sapiens with 2 samples.

Results

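Amino acid transporters are carrier proteins that move amino acids, and some related compounds, across the plasma membrane and the membranes of lysosomes. They were taken here as every array feature whose gene name belongs to 1 of 7 solute carrier (SLC) families: SLC1, SLC3, SLC6, SLC7, SLC36, SLC38 and SLC43. The rule found 105 features of 54 genes, out of 45033 features and 23595 named genes on the array. Members were taken by the gene names of the array's design, while the counts over all genes and over other SLC genes use current RefSeq symbols where the gene identifier had one. The families were taken by name and not by measured values, but with earlier results of these data known.

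The RNA came from TE-1, an established human oesophageal cancer cell line grown in medium with 10% serum and, at 100 units per ml each, penicillin G and streptomycin. The tested cells had been transfected with pcDNA3.1 carrying PAX2, a paired-box transcription factor of kidney development. The control cells had been transfected with the empty pcDNA3.1 vector. RNA was taken 24 h after transfection and hybridised to single-colour arrays, 1 array per group. The small number of arrays limits the precision: differences carry no p-value, and nothing here repeats between cultures. The labels do not state how many cells took up either vector, and both groups carry the pcDNA3.1 backbone. In RNA from a whole culture, fewer cells that express a gene and less RNA per cell cannot be told apart.

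PAX2 itself had an intensity of 22.05 on the array labelled PAX2, against 22.18 on the control array, close to the random-sequence probes (19.28 and 20.59). The array therefore does not check the label, and the array is called PAX2-labelled throughout. The deposited files do not place the 3 probes of a feature on the transcript. Median intensity over all features was 210.07 on the PAX2-labelled array and 205.15 on the control array. A gene counted as measured where the mean log2 intensity of its features was no lower than this median on either 1 or both arrays. Olfactory receptor genes, mostly silent in epithelial lines, gave a silent range, and its upper end (the 95th percentile of 376 genes) lay at 142.2 on the PAX2-labelled array and 134.33 on the control array. Of 12 epithelial markers 7 were measured, KRT5, KRT8, KRT14, KRT17, KRT18, SFN and DSP. KRT19, KRT6A, TP63, EPCAM and CDH1 were below the filter. The epithelial adhesion proteins among them were close to or within the silent range, EPCAM with 113.92 on the PAX2-labelled array and 140.61 on the control array, and CDH1 with 51.57 on the PAX2-labelled array and 57.84 on the control array.

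Cells obtain amino acids through carriers that work as exchangers or as loaders. Exchangers such as LAT1 (SLC7A5) swap an amino acid from inside for one from outside, and sodium-coupled loaders such as the SLC38 proteins fill the internal pool that the exchangers spend. LAT1 and several other SLC7 proteins, the light chains, reach the membrane only when paired with a heavy chain of the SLC3 family. Tumour cells are known for high LAT1, ASCT2 (SLC1A5) and xCT (SLC7A11), which bring in essential amino acids, glutamine and cystine. When amino acids run short, the transcription factor ATF4 switches on many of these carriers.

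The promoter sequences of the members were searched for the element through which ATF4 acts, since ATF4 is a known regulator of many of these carriers. The element, TGATGNAAN, was sought on both strands in RefSeq promoters (GRCh38.p14, from 250 bases before to 50 after a gene's start). Of the 54 genes 39 had promoters in the table, 58 in all, and 6 of the 58 (10.3%) held the element, against 3.61% of all 35116 promoters. The stretches are shown because they let the carriers with the element be set beside their differences. Capitals mark the match, which is the reverse complement in SLC1A4 and SLC3A2. Each runs 5′ to 3′ along the gene's strand.
SLC7A1 (chr13:29595663-29595691, minus strand): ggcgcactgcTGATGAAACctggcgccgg
SLC3A2 (chr11:62881725-62881748, plus strand): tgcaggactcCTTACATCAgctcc
SLC1A5 (chr19:46784893-46784921, minus strand): aggaagtggcTGATGCAAGctgtccaggg
SLC1A4 (chr2:64989381-64989409, plus strand): gcggctcccgTTTGCATCAtctccagccg
SLC38A1 (chr12:46266502-46266530, minus strand): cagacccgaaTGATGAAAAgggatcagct
SLC1A3 (chr5:36596358-36596386, plus strand): aggaaatgacTGATGCAAAgcagggttaa

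The filter left 24 of the 54 genes, and none of the 24 differed 2-fold between the PAX2-labelled and the control array. Over all 11628 measured genes 1.13% were higher by 2-fold or more and 1.16% lower by 2-fold or more, so 24 genes with no such member are close to that background. Higher by 1.5-fold or more were 2 of the 24, SLC7A1 and SLC6A14, against a background of 4.51%. SLC6A14 passed the filter only through the PAX2-labelled array, where it is high, so the filter had a part in that count. None was lower by 1.5-fold or more, against 3.22%. The median difference of the 24, as log2 of the PAX2-labelled over the control array, was 0.10, beside 0.02 over all measured genes, and 16 were above 0 and 8 below. The share above 0 was 66.7%, beside 61.6% of the other measured SLC genes and 53.4% of all measured genes. Of the 8 below 0, SLC6A19 passed the filter only through the control array, where its mean was higher. Each array was also rescaled in 3 ways, by centring on its median, by quantile normalization and by loess on brightness. These left SLC7A1 alone past 1.5-fold. With no filter on dim genes the median over all 54 was -0.03. Of the 318 genes of other SLC families 151 were measured, with a median of 0.05; 1 gene was higher by 2-fold or more and none lower.

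**Figure D1:**
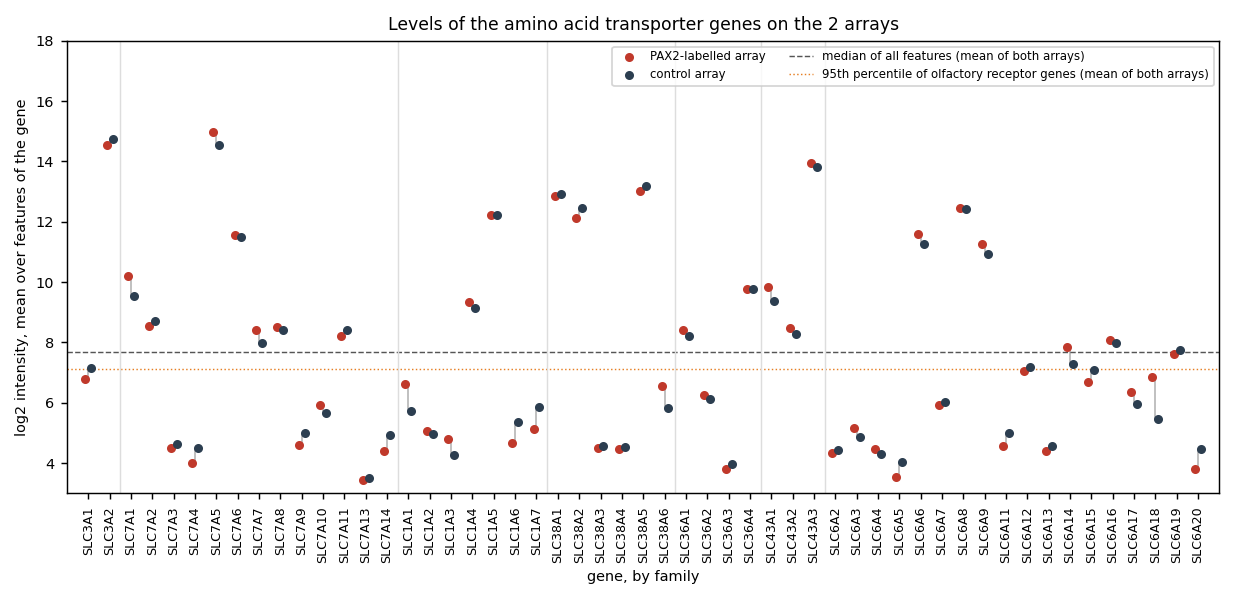
Log2 intensity (mean over the features of a gene, vertical axis) of 53 genes on the PAX2-labelled array (red) and the control array (dark), ordered by family along the horizontal axis. The dashed line is the median of all features and the dotted line the upper end of the silent range; 24 genes reach the median on at least 1 array, and 26 lie within the silent range on both.

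The intensity of a feature depends on its probes as well as on its transcript, so brightness is given here to say how far a gene stood above background and not to rank genes by amount. In the upper quartile of brightness stood 11 of the measured members: SLC3A2, SLC7A5, SLC7A6, SLC1A5, SLC38A1, SLC38A2, SLC38A5, SLC43A3, SLC6A6, SLC6A8 and SLC6A9. None of these 11 differed 1.5-fold, where 2.21% of all 5532 genes of that brightness were higher by that much and 1.05% lower. The background at 2-fold was 0.38% higher and 0.199% lower.

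Among the heavy chains, SLC3A2, also called CD98hc, is the partner of LAT1, xCT and the y+LAT carriers. Its single feature had an intensity of 23896 on the PAX2-labelled array and 27491 on the control array (HG18 chromosome 11, 62380093 to 62412929). The difference was -0.20 on the log2 scale, and 15.9% of genes of like brightness were at least as far below 0. SLC3A1, or rBAT, is the heavy chain of the kidney and gut cystine carrier. Its mean over 6 features was below the filter, at 109.58 on the PAX2-labelled array and 142.77 on the control array. The feature of its RefSeq transcript was measured at 723 on the PAX2-labelled array and 867 on the control array, a log2 difference of -0.26. A feature over part of the gene (HG18 chromosome 2, 44384448 to 44401441) had 284 on the PAX2-labelled array and 425 on the control array, a difference of -0.58. Both measured features of SLC3A1 were thus lower on the PAX2-labelled array.

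Among the light chains, SLC7A5 encodes LAT1, which imports leucine and other large neutral amino acids. Its features had intensities of 33878 and 30943 on the PAX2-labelled array, against 26421 and 21749 on the control array (HG18 chromosome 16, 86421129 to 86460601). Both features were higher on the PAX2-labelled array, by 0.43 ± 0.11 on the log2 scale (SD, n = 2 features), or 1.35-fold. A difference at least this far above 0 was held by 5.8% of genes of like brightness. SLC7A5P2, a near-identical pseudogene copy that the array lists as IMAA, had 2513 on the PAX2-labelled array and 1566 on the control array, a log2 difference of 0.68. Probes of such copies can bind each other's transcripts, and their signals cannot be told apart here. The difference of SLC7A5 thus lay above 0 and that of its heavy chain SLC3A2 below 0; no test of this contrast was possible with 1 array per group.

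The other light chains differed by less or rested on a single feature. SLC7A7 encodes y+LAT1, which exchanges cationic for neutral amino acids. It had 341 on the PAX2-labelled array and 251 on the control array, a log2 difference of 0.45 in its only feature. SLC7A6, or y+LAT2, had 3037 on the PAX2-labelled array and 2909 on the control array, a mean difference of 0.06 ± 0.18 (SD, n = 3 features). SLC7A8, or LAT2, had 369 on the PAX2-labelled array and 340 on the control array, a difference of 0.12 in 1 feature. SLC7A6 shares its locus with SLC7A6OS on the opposite strand. SLC7A11 encodes xCT, which takes up cystine in exchange for glutamate and is a target of both ATF4 and the oxidative stress factor NRF2. Its mean intensity was 299 on the PAX2-labelled array and 339 on the control array. Of its 3 features 2 were close to 0 (0.06 and 0.04) and the brightest had -0.64, which gave a mean of -0.18 ± 0.40 (SD). The sign of the SLC7A11 mean therefore came from 1 feature. SLC7A9, the partner of rBAT, SLC7A10 and SLC7A13 were within the silent range on both arrays.

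Among the carriers of cationic amino acids, which need no heavy chain, SLC7A1 had the largest difference of all measured members. It is the main arginine and lysine importer of most cells. Its 3 features had intensities of 1090, 755 and 1935 on the PAX2-labelled array, against 659, 321 and 1889 on the control array (HG18 chromosome 13, 28981550 to 29067721). All 3 were above 0, but by unequal amounts, 0.73, 1.23 and 0.03. The mean was 0.67 ± 0.60 (SD, n = 3 features), or 1.59-fold, and 4.81% of the 6096 genes of like brightness were at least as far above 0. That class holds all measured genes below the upper quartile. SLC7A1, with a mean of 1168 on the PAX2-labelled array, lay near its upper edge of 1209. Features of a gene scattered more below the upper quartile (SD 0.38) than in it (0.23). The share among genes closer in brightness was not tested. The brightest feature, that of the RefSeq transcript, showed almost none of this difference. SLC7A2, another arginine carrier, had 371 on the PAX2-labelled array and 420 on the control array. Its features lay on either side of 0, at -0.43, -0.46 and 0.35, with a mean of -0.18 ± 0.46 (SD, n = 3 features). The SLC7A2 feature above 0 passed the filter only through the PAX2-labelled array, with 212 there and 166 on the control array. SLC7A3 and the related SLC7A4 and SLC7A14 were within the silent range on both arrays.

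**Figure D2:**
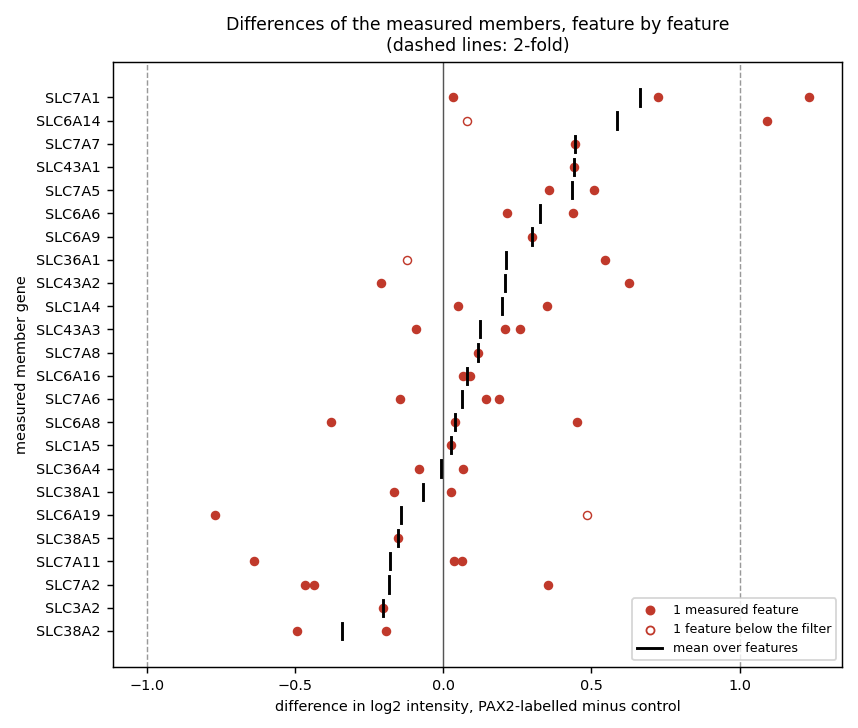
Difference in log2 intensity, PAX2-labelled minus control (horizontal axis), of each feature (points) and their mean (black bars) for the 24 measured members, sorted by mean. Filled points are measured features and open points features below the filter, and the dashed lines mark 2-fold; 2 measured features, of SLC7A1 and SLC6A14, lie beyond them.

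At the level of single features, 48 of the 105 were measured. Higher by 2-fold or more were 2 of these, 1 each of SLC7A1 and SLC6A14, where 1.66% of all measured features with a gene were. The SLC6A14 feature was again above the filter on the PAX2-labelled array only. None was lower by 2-fold or more, against 1.43%. Of the 15 members with several measured features, all features had the same sign in 7. They were above 0 in SLC7A5, SLC7A1, SLC1A4, SLC6A6 and SLC6A16, and below 0 in SLC38A2 and SLC3A1. The share of 46.7% was close to the 49.2% over all 6174 genes with several measured features. The SD between features of a gene was 0.35 in the members and 0.31 over all genes, and 0.23 over all genes where only features in the upper quartile of brightness were used.

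The SLC1 family holds glutamate carriers of nerve and glia and a pair of neutral amino acid exchangers. Only the exchangers SLC1A4 and SLC1A5 were measured. SLC1A5, or ASCT2, a glutamine carrier, had 4830 on the PAX2-labelled array and 4741 on the control array (HG18 chromosome 19, 51969979 to 51983653). The difference of 0.03 turned to -0.01 after centring on array medians. SLC1A4, or ASCT1, which carries serine and alanine, had 651 on the PAX2-labelled array and 567 on the control array, a difference of 0.20 ± 0.21 (SD, n = 2 features). The glutamate carriers SLC1A1, SLC1A2, SLC1A3, SLC1A6 and SLC1A7 were within the silent range on both arrays, so no fold is given. The glial pair SLC1A2 and SLC1A3 did not exceed 33.28 on the PAX2-labelled array and 30.98 on the control array. Of 5 astrocyte markers none was measured.

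The SLC38 family holds the sodium-coupled carriers that load glutamine, alanine and other small neutral amino acids. The 3 measured members carried by that name were all below 0. Each of the 3 rescalings moved them further below 0, so the rescalings are no check on this direction. SLC38A2, the carrier that cells induce when amino acids run short, had 5353 and 3748 on the PAX2-labelled array, against 6116 and 5274 on the control array (HG18 chromosome 12, 45038237 to 45052821). Both features were lower on the PAX2-labelled array, by a mean log2 difference of -0.34 ± 0.21 (SD, n = 2 features). At least as far below 0 were 5.51% of genes of like brightness. Its neighbour SLC38A1, a glutamine loader, had 7391 on the PAX2-labelled array and 7755 on the control array, a difference of -0.07 ± 0.14 (SD, n = 2 features). SLC38A5, a carrier of glutamine, histidine and serine, had 8398 on the PAX2-labelled array and 9329 on the control array, a difference of -0.15 in 1 feature. SLC38A4, next to both on chromosome 12, was within the silent range, as were SLC38A3 and SLC38A6.

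The array names 6 further SLC38 genes by older names, so the rule does not take them, and they were added after their values were seen. SLC38A9 is a lysosomal carrier that reports arginine to mTORC1, the growth regulator. It had 1263 on the PAX2-labelled array and 1349 on the control array, a difference of -0.10 ± 0.03 (SD, n = 2 features). SLC38A7, a glutamine carrier of lysosomes, had 1074 on the PAX2-labelled array and 990.3 on the control array, a difference of 0.12 ± 0.03 (SD, n = 2 features). SLC38A10 had a difference of 0.13 ± 0.27 (SD, n = 4 features). SLC38A12, listed as TMEM104, had 645 on the PAX2-labelled array and 399 on the control array. Its 2 features had differences of 0.96 and 0.43, and the mean of 0.69, or 1.62-fold, was larger than that of any measured member taken by the rule. SLC38A8 and SLC38A11 were not measured. With these genes the SLC38 family lay on both sides of 0.

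The SLC43 family holds uniporters of large neutral amino acids, which release or take up leucine without exchange. All 3 members were measured and above 0. SLC43A1, or LAT3, had 907 on the PAX2-labelled array and 668 on the control array, a difference of 0.44 in 1 feature. SLC43A2, or LAT4, had 445 and 284 on the PAX2-labelled array, against 288 and 329 on the control array. Its features thus lay on either side of 0, at 0.63 and -0.21, with a mean of 0.21. SLC43A3, which carries purine bases and not amino acids, had 15881 on the PAX2-labelled array and 14558 on the control array, a difference of 0.13 ± 0.19 (SD, n = 3 features). The features of SLC43A3 also lay on either side of 0, at 0.26, -0.09 and 0.21. The directions of the SLC43 means held after each rescaling, but the rescalings moved these means only slightly.

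The SLC36 family holds proton-coupled carriers of small amino acids, several of them on lysosomes. SLC36A4 had 867 on the PAX2-labelled array and 871 on the control array, a difference of -0.01 ± 0.10 (SD, n = 2 features). SLC36A1, or PAT1, had 343 on the PAX2-labelled array and 296 on the control array, a difference of 0.21 ± 0.47 (SD, n = 2 features). These values were small beside the spread between features. The mean of SLC36A2, a carrier of glycine and proline, was within the silent range, and 1 of its 3 features was measured, with 323 on the PAX2-labelled array and 208 on the control array. SLC36A3 was within the silent range.

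The SLC6 family is the largest of the 7, with 19 genes, and holds the sodium-coupled carriers of neurotransmitters, osmolytes, creatine and amino acids. Only 6 were measured. SLC6A6 carries taurine, and had 3062 on the PAX2-labelled array and 2441 on the control array. Both of its features were above 0, with a mean of 0.33 ± 0.16 (SD, n = 2 features), and 10.3% of genes of like brightness were at least as far above 0. SLC6A9, the glycine carrier GLYT1, had 2432 on the PAX2-labelled array and 1974 on the control array, a difference of 0.30 in 1 feature.

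SLC6A14 is a broad carrier of neutral and cationic amino acids that many epithelial tumours raise. Its features had 306 and 177 on the PAX2-labelled array, against 144 and 167 on the control array (HG18 chromosome X, 115481817 to 115506651). The first feature was measured through the PAX2-labelled array alone, and its control value was below the filter and just above the silent range, so its ratio of 2.13 was in part fixed by the filter. The second had a difference of 0.08. The mean of 0.59 ± 0.71 (SD, n = 2 features) was just past 1.5-fold, and below it after each of the 3 rescalings.

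SLC6A8, the creatine carrier, has a near-identical pseudogene, SLC6A10P, on chromosome 16. The array's design places 1 of the 3 SLC6A8 features on chromosome 16 too (33205875 to 33692827). That feature had 9323 on the PAX2-labelled array and 6814 on the control array, a difference of 0.45. The features on chromosome X had 3822 and 5018 on the PAX2-labelled array, against 4961 and 4882 on the control array, differences of -0.38 and 0.04. The mean of 0.04 ± 0.41 therefore joins features that may not report the same transcript. SLC6A10P itself had a difference of 0.18.

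SLC6A19, a neutral amino acid carrier of gut and kidney, was measured through 1 feature, with 524 on the PAX2-labelled array and 893 on the control array. The other feature, that of its RefSeq transcript, had 72.9 on the PAX2-labelled array and 52.1 on the control array. The features opposed each other, with differences of -0.77 and 0.48 and a mean of -0.14. The mean intensity of SLC6A19 was 195.45 on the PAX2-labelled array and 215.77 on the control array. It passed the filter only through the control array, where it is higher, so the filter had a part in its sign. SLC6A16, an orphan carrier, had 270 on the PAX2-labelled array and 256 on the control array, a difference of 0.08 ± 0.02 (SD, n = 2 features). Of 11 kidney and gut markers 3 were measured, ANPEP with a difference of -0.78, ALPI with 0.57 and AQP1 with -0.07. The summed intensity of that list was 16718 on the PAX2-labelled array and 13494 on the control array. Most of that sum came from the 1 feature of ALPI, with 14064 on the PAX2-labelled array and 9486 on the control array. ANPEP lay the other way, with 1715 on the PAX2-labelled array and 2950 on the control array. The other 8 markers were within the silent range on both arrays. TE-1 is a cell line, so these values are not read as a share of kidney or gut cells. A link between these markers and SLC6A19 was not tested.

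Most neurotransmitter carriers gave no signal above the silent range. The GABA carriers SLC6A11 and SLC6A13, the noradrenaline, dopamine and serotonin carriers SLC6A2, SLC6A3 and SLC6A4, the glycine carrier SLC6A5, the proline carriers SLC6A7 and SLC6A20, and SLC6A17 were within the silent range on both arrays. Of 12 neuronal markers 1 was measured, the tubulin TUBB3, with a difference of -0.03. SLC6A12, the betaine and GABA carrier, and SLC6A15, a branched-chain amino acid carrier, were at the edge of the range, above it on the control array only. SLC6A12 had 132.04 on the PAX2-labelled array and 145.38 on the control array, both below the filter, so no fold is given. SLC6A15 had a mean of 102.8 on the PAX2-labelled array and 135.41 on the control array, with all 4 features below 0. Of these 4 features 1 was measured, with 230 on the PAX2-labelled array and 290 on the control array, a difference of -0.34. SLC6A18, which forms a cluster with SLC6A19 on chromosome 5, had 114.76 on the PAX2-labelled array and 44.5 on the control array. This difference of 1.37 was the only one past 2-fold among the 53 genes described, but both values were within the silent range, so it gives no fold.

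**Figure D3:**
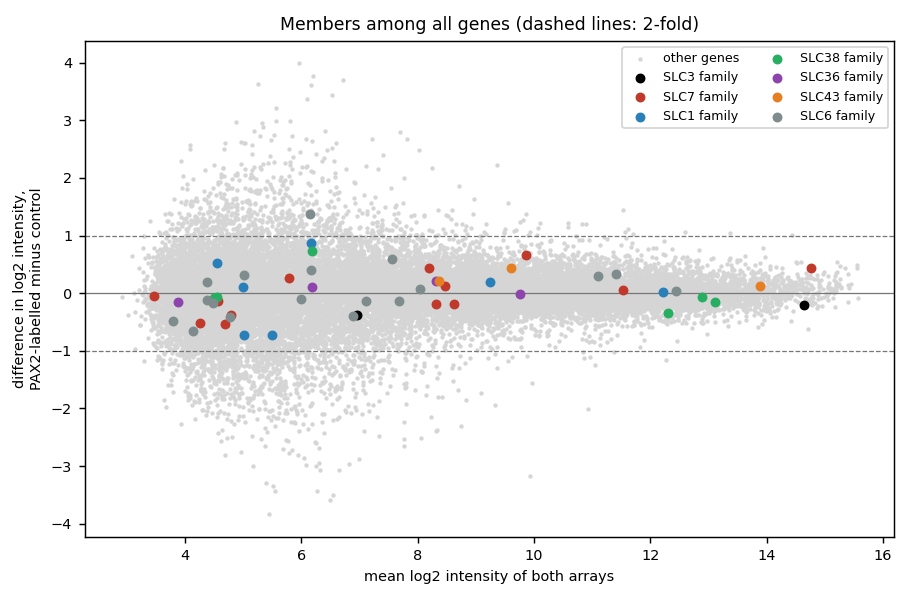
Difference in log2 intensity, PAX2-labelled minus control (vertical axis), against the mean log2 intensity of both arrays (horizontal axis), for all other genes (grey) and the members coloured by family. The 29 members shown that were not measured spread from -0.73 to 1.37, and the 24 measured ones from -0.34 to 0.67.

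The dim members scattered more widely than the bright ones. The 29 members described that were not measured had differences from -0.73 to 1.37 with an SD of 0.49. The 24 measured members had differences from -0.34 to 0.67 with an SD of 0.27. In 26 genes within the silent range on both arrays the intensities ran from 10.87 to 114.76 on the PAX2-labelled array and from 11.27 to 70.28 on the control array.

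The 5 measured carriers whose promoters hold the ATF4 element, printed above, did not share a direction. Their differences were 0.67 for SLC7A1, 0.20 for SLC1A4, 0.03 for SLC1A5, -0.07 for SLC38A1 and -0.20 for SLC3A2. SLC1A3 was silent on both arrays. A match is a description of the letters in these windows and not a site shown to be bound.

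ATF4 and the genes it controls in the same response had a median close to 0 as well. Of these 21 genes 19 were measured, none differed 2-fold, and the median was -0.03, with 7 above 0 and 12 below. ATF4 itself had a difference of 0.03 and ASNS, which makes asparagine, -0.24. PHGDH, the first enzyme of serine synthesis, had 8739 on the PAX2-labelled array and 5949 on the control array, a difference of 0.55. PSAT1 and PSPH, the next enzymes of that pathway, had -0.50 each. STC2, a secreted stress protein, had the largest difference the other way, -0.67 with -0.64 and -0.71 in its features, and an intensity of 700 on the PAX2-labelled array and 1115 on the control array.

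Carriers outside the 7 families and enzymes that use the imported amino acids had medians close to 0 too. Of 10 lysosomal and vesicular carriers 5 were measured and none differed 2-fold. MFSD12, which brings cysteine into lysosomes, had 8029 on the PAX2-labelled array and 5407 on the control array, a difference of 0.57 with both features above 0, and SLC15A4 had -0.22. The median of these 5 was 0.09. Of 11 mitochondrial carriers 8 were measured, with a median of 0.003 and a range from -0.26 for SFXN2 to 0.17 for SLC25A29. Of 5 further plasma membrane carriers and partners none was measured. Among 16 measured of 20 enzymes of glutamine, cysteine, arginine and branched-chain amino acid use the median was 0.06. ASS1, which makes argininosuccinate on the way to arginine, had 0.34, and BCAT2, the mitochondrial branched-chain aminotransferase, had -0.44.

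**Figure D4:**
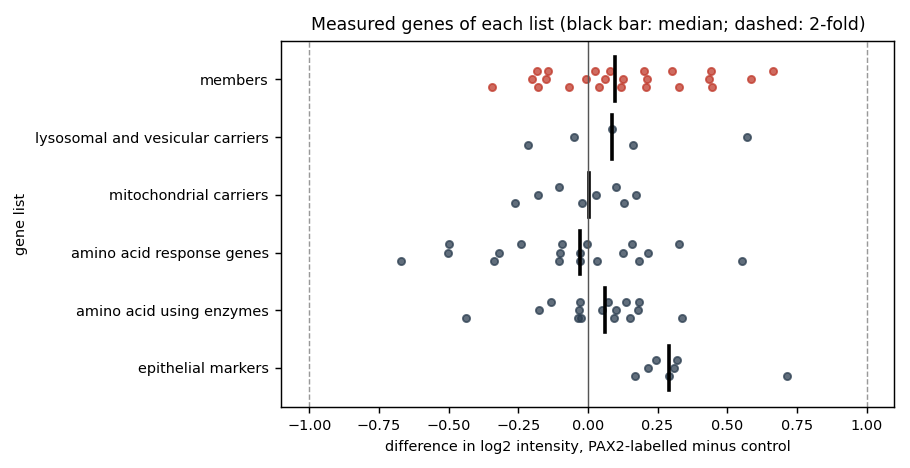
Difference in log2 intensity, PAX2-labelled minus control (horizontal axis), of the measured genes of each list (points, spread vertically only for legibility) with the median as a black bar. No gene of these lists lies beyond the dashed 2-fold lines, and the median of the epithelial markers lies at 0.29.

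The 7 measured epithelial markers were all above 0, with a median of 0.29, where 53.4% of all measured genes were above 0. KRT5 had 0.72, the largest difference among them. Below the filter, KRT6A (-0.40), EPCAM (-0.30), CDH1 (-0.17) and KRT19 (-0.02) lay below 0 and TP63 (0.15) above. The summed intensity of all 12 markers was 101234 on the PAX2-labelled array and 83556 on the control array. Most of that sum came from SFN, KRT8 and KRT18. The sum and the measured markers lay on the same side as SLC7A5. The part of these markers in the SLC7A5 difference was not tested. Of 9 leukocyte and blood markers 1 was measured, CD68, with -0.54, and PTPRC did not exceed 19.23 on either array. Of 9 fibroblast and endothelial markers 3 were measured, FBLN1 with 0.28, COL1A1 with 0.46 and DCN with 0.09, while the endothelial markers PECAM1 and VWF were within the silent range. The summed intensity of these 9 was 28306 on the PAX2-labelled array and 23176 on the control array, most of it from FBLN1, and its part in the members' differences was not tested.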

How the data were processed

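Total RNA of TE-1 cells was labelled with Cy3 and hybridised to NimbleGen arrays, per the labels' protocols. The deposited intensities are linear values, 1 per feature and array, that the authors, per the submitters' processing notes, made with RMA. Its version, background correction and between-array step were not given in the sources used here. RMA fits all arrays of a set together and can narrow differences between them. Per the file headers, 45031 of 45033 features had 3 probes, gene names came from a design on HG18, and no detection call is held. The authors' series table holds the same intensities in its 45034 rows, which are the 45033 features and 1 row for the random-sequence probes.

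Features with a gene identifier (42947) were named through the RefSeq gene table of GRCh38.p14 (38916 matched) or else by the name in the file. Log2 intensities of a gene's features were averaged, and differences are the PAX2-labelled minus the control array, with no pseudocount. The shares of genes of like brightness refer to measured genes inside, or outside, the upper quartile. With 1 array per group no test was made. Every member but 1, which is not reported here and is held only in the counts, shares and medians over the 54, was named, and of each other list the measured gene with the largest difference each way. Further genes named were chosen after their values were seen. The members and the 11 lists were chosen with earlier results of these data known. Counting was tested on simulated data. Python 3.11.15, pandas 2.3.3, numpy 2.4.6 and statsmodels 0.14.6 were used.

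Alternatives tried were thresholds of 1.5-fold and 3-fold, no filter on dim genes or one at the 75th percentile, an offset of 64, quantile normalization, loess on brightness (fraction 0.3), centring on array medians, the series table, a gene's brightest feature alone, and other silent ranges (the 90th and 99th percentiles, and the random-sequence probes).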

Additional observations from a re-analysis of the deposited data

How the results depend on the processing

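No paired analysis was possible because only 1 array stands in each group. The counts of 2-fold differences followed the filter and the feature rule. Over all genes, against 131 higher and 135 lower, the brightest feature gave 217 higher and 260 lower, an offset of 64 gave 68 higher, and leaving out the filter gave 755 higher and 960 lower. The stricter filter at the 75th percentile gave 21 higher and 11 lower. A 1.5-fold threshold gave 524 higher and 374 lower, and a 3-fold one 28 higher and 55 lower. Among the members 1 gene was 2-fold higher with the brightest feature (SLC6A14) and 1 with no filter (SLC6A18), against 0, and 2 were past 1.5-fold. With no filter the member median was -0.03 (-0.0298). Member features past 2-fold, against 2 higher and 0 lower, numbered 5 and 3 with no filter, 0 higher with the 75th percentile filter or at 3-fold, 1 higher with the offset, and 5 and 2 at 1.5-fold. With the brightest feature the medians of the lysosomal carriers and of the kidney and gut markers became 0.29 and -0.62, and 1 marker each of kidney or gut and of leukocytes was 2-fold lower. With no filter 1 neuronal marker was lower, 1 fibroblast or endothelial marker higher, and among kidney and gut markers 1 was higher and 2 lower. At 1.5-fold 1 ATF4 target and 1 kidney or gut marker were lower and 1 epithelial marker higher. The random-sequence probes as the silent range left 4 members within it, against 27.

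Of 168 differences recomputed for single members and the SLC38 genes under older names, 160 moved by less than the spread between features. The other 8 moved with the brightest feature: SLC7A1 to 0.03, SLC6A14 to 1.09, SLC43A2 to 0.63, SLC36A1 to 0.55, SLC6A8 to 0.45, SLC38A10 to 0.50, SLC7A11 to -0.64 and SLC6A19 to -0.77. The SLC6A8 value is that of the feature placed on chromosome 16, which may report another transcript. Its features on chromosome X had -0.38 and 0.04. The 160 include values that could not move. These are all values from the series table, which holds the same intensities, and the brightest feature of genes with 1 feature. The 160 are therefore no measure of how firm the differences are. The limits are 1 array per group, an unchecked PAX2 label, few features per gene, and probes that may bind near-identical copies. Differences between cultures or hybridisations could not be estimated. As alternatives chosen after seeing the data, a gene counted by any measured feature gave 27 members with none past 2-fold and a median of 0.08, and the 1.5-fold counts were repeated after the 3 rescalings.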
